A study of Arabidopsis thaliana with 8 samples.

Results

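The genes described here encode hybrid proline-rich proteins of Arabidopsis that carry a lipid-transfer-type domain. They are 7 genes in a pair of clusters on chromosome 4: AT4G22460, AT4G22470 and AT4G22490 in one, and AT4G12470 (AZI1), AT4G12480 (EARLI1), AT4G12490 and AT4G12500 in the other. AT4G22490 was picked from these arrays because its intensity differed with drought in opposite directions in the 2 genotypes, and the others were added as its relatives. Of the 7 genes, 5 had a probe set named for them alone in the platform annotation, out of 22746 probe sets tested. AZI1 and EARLI1 were not analysed here. Because the response of AT4G22490 chose it, its values are given as a description with no test, and the tests below cover the other 4 members.

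Leaf RNA was measured on 8 Affymetrix ATH1 arrays, 2 for each of 4 groups. WT 0d and WT 5d were Col-0 wild type plants before drought and 5 d after the last irrigation, and OE 0d and OE 5d were *VaNAC26*-OE plants on the same days. The OE plants carried the *NAC26* gene of the wild grapevine *Vitis amurensis*, a NAC transcription factor, behind the constitutive cauliflower mosaic virus 35S promoter, and each OE sample pooled equal amounts of leaves of 3 independent transgenic lines. All plants had grown in soil for 21 d before water was withheld. No group was watered until 5 d, so drought cannot be told apart from plant age and sampling day.

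Hybrid proline-rich proteins are small secreted proteins that join a proline-rich stretch at the N-terminus, which can associate with the cell wall, to a cysteine-rich domain of the lipid transfer protein fold at the C-terminus. AZI1 is best known for its part in the priming of systemic acquired resistance by azelaic acid, and EARLI1 was first found as a gene induced by aluminium. Many members of the family respond to cold, drought, salt or pathogens, and they often lie in tandem arrays.

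Intensities ran from 2.91 to 13003 over all arrays and probe sets, and 47.8% of the values were under 32, taken here as dim. The array medians lay between 36.2 and 38.2. The arrays of OE 5d stood apart, with 1294 probe sets over 2-fold apart between them, against 79 to 143 within the other groups, so the values of the members and of the genes named from lists that rest on OE 5d are also given without each of its arrays. The array then left in OE 5d shows no scatter of its own, and the error comes from groups whose arrays lay closer together. A smaller p in these fits is therefore no added evidence, and their effect sizes are given. RCA, a rubisco activase of green leaf cells and 1 of 7 leaf markers with a named probe set, lay between 6992 and 9858 on all arrays. PYK10, a beta-glucosidase abundant in roots and 1 of 5 root markers with a named probe set, had intensities of 139 and 101 in WT 0d, 61.7 and 40.5 in OE 0d, 11.3 and 10.4 in WT 5d and 25.2 and 13.6 in OE 5d. The sources do not say whether the 2 arrays of a group stand for different plants, and the p-values therefore reflect the scatter of these arrays only, possibly a technical one.

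AT4G22490 was bright in wild type leaves before drought and in OE leaves after it, and dim in the other pair of groups. Its intensities were 440.2 and 251 in WT 0d (346 ± 134, SD, n = 2) and 20.03 and 11.1 in OE 0d (15.6 ± 6.30, SD, n = 2). After 5 d they were 17.7 and 14.5 in WT 5d (16.1 ± 2.26, SD, n = 2), and 278 and 123 in OE 5d (200.4 ± 109.6, SD, n = 2). The lowest of the 4 bright arrays, 123, was above the highest of the 4 dim arrays, 20.03. Within each of these pairs of groups the values overlapped, WT 0d with OE 5d and OE 0d with WT 5d. The order of the group means, highest first, was WT 0d, OE 5d, WT 5d and OE 0d.

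On the log2 scale, AT4G22490 differed by -4.48 between OE 0d and WT 0d, a 22.3-fold lower intensity, and this was the lowest value of the 22746 probe sets. It differed by -4.38 between WT 5d and WT 0d (rank 4 from the lowest), by 3.63 between OE 5d and OE 0d (rank 11 from the highest) and by 3.53 between OE 5d and WT 5d (rank 9 from the highest). The drought response of the OE lines minus that of WT came to 8.01, rank 1 of all probe sets. The rule used this pattern, so these ranks describe how the gene was found and support nothing further. Without the first or the second array of OE 5d, the difference between the drought responses was 7.42 or 8.60. All 4 dim arrays lay under 32, and with values under 32 set to 32 that difference was 5.91. In leaf tissue, fewer cells of a type and less RNA per cell cannot be told apart, for this gene or for those below. PYK10 fell by 3.45 on the log2 scale from WT 0d to WT 5d (adjusted p = 0.000650 in limma) and fell by 1.43 in the OE lines (adjusted p = 0.0239, or 0.161 and 0.0752 without the first or the second OE 0d array), where AT4G22490 was higher after drought. Without the first or the second OE 5d array PYK10 was at -1.88 or -0.99 in the OE lines. Its part in the result was not tested.

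**Figure D1:**
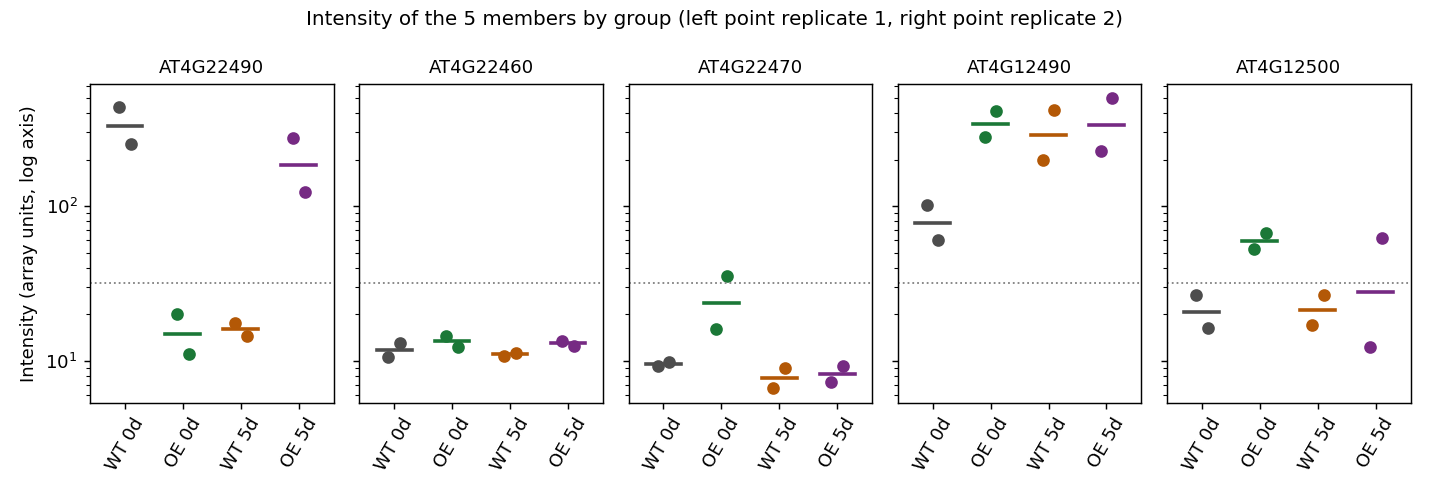
Intensity in array units on a log axis for the 5 genes with a named probe set, with 1 point per array (left replicate 1, right replicate 2), a bar at the mean of the log2 values of each group and a dotted line at 32. AT4G22490 lay between 123 and 440.2 in WT 0d and OE 5d and between 11.1 and 20.03 in OE 0d and WT 5d, whereas AT4G12490 was lowest in WT 0d.

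The other genes of its own cluster were dim. AT4G22460 gave 10.5 and 13.0 in WT 0d, 14.6 and 12.3 in OE 0d, 10.7 and 11.3 in WT 5d and 13.5 and 12.4 in OE 5d. All 8 values were under 32 and spanned a 1.38-fold range, against 39.6-fold for AT4G22490. None of its comparisons passed the test. The 95% confidence intervals of its log2 fold change were -0.17 to 0.56 for OE 0d vs WT 0d, -0.13 to 0.60 for OE 5d vs WT 5d, -0.46 to 0.28 for WT 5d vs WT 0d and -0.42 to 0.32 for OE 5d vs OE 0d. At these dim intensities a change in transcript level may not be detectable.

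AT4G22470 gave 9.30 and 9.82 in WT 0d, 16.0 and 35.4 in OE 0d, 6.64 and 9.01 in WT 5d and 7.27 and 9.23 in OE 5d. The OE 0d arrays were the highest, and the second of them was the only value of the 8 over 32. AT4G22470 fell in the OE lines during drought, with a log2 fold change of -1.54 (SE 0.34, 95% CI -2.33 to -0.75), a 2.90-fold lower intensity, at an adjusted p of 0.0241 in limma's moderated test. The corresponding value in WT was -0.31 (adjusted p = 0.581), and the difference between the genotypes, -1.23, did not pass the test (adjusted p = 0.297). The call in the OE lines did not hold without the second OE 0d array (-0.96, adjusted p = 0.107), without either WT 0d array (adjusted p = 0.0539) or with the 4 arrays of the comparison alone (adjusted p = 0.115), and with values under 32 set to 32 the fold change was -0.07 (adjusted p = 0.615). The fold change was -1.36 or -1.71 without the first or the second OE 5d array.

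In the cluster with AZI1 and EARLI1, AT4G12490 was measured well above 32 on all arrays. Its intensities were 102 and 60.2 in WT 0d (81.2 ± 29.7, SD, n = 2), 282 and 413 in OE 0d (347 ± 92.8, SD, n = 2), 198 and 417 in WT 5d (307 ± 155, SD, n = 2) and 227 and 500.4 in OE 5d (364 ± 193, SD, n = 2). Both WT 0d arrays lay below all 6 others, and the other 3 groups overlapped one another. AT4G12490 had its lowest group where AT4G22490 had its highest.

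AT4G12490 rose in WT during drought, with a log2 fold change of 1.87 (SE 0.47, 95% CI 0.78 to 2.97), 3.66-fold, at an adjusted p of 0.0188 in limma. In the OE lines the value was -0.02 (95% CI -1.11 to 1.08, adjusted p = 0.988). The OE response minus the WT response was -1.89 (95% CI -3.44 to -0.34) with an adjusted p of 0.271. It depended on which OE 5d array was kept: -2.46 without the second and -1.32 without the first. The call in WT was lost without the second WT 0d array (1.49), without the second WT 5d array (1.33) and with values under 32 set to 32 (adjusted p = 0.131). Under the last setting the fold change stayed at 1.87, as no value of AT4G12490 was under 32.

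AT4G12500, the next member of the cluster, was dimmer and more scattered. It gave 26.6 and 16.2 in WT 0d, 52.7 and 67.2 in OE 0d, 17.0 and 26.8 in WT 5d and 12.3 and 62.2 in OE 5d. Both OE 0d arrays were above both arrays of each WT group, and the OE 5d arrays, 5.06-fold apart, spanned nearly the whole range. Its drought response was 0.04 in WT (adjusted p = 0.977) and -1.11 in the OE lines (adjusted p = 0.329). The value in the OE lines was set by the array kept, 0.06 without the first OE 5d array and -2.28 without the second. AT4G12490 and AT4G12500 are close relatives of each other and of AZI1 and EARLI1. How far their probe sets hybridize to each other's transcripts was not examined, so their values are uncertain to that extent.

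The first question of the design was what *VaNAC26* overexpression changed in watered leaves. In OE 0d vs WT 0d, 3 of the 4 tested members had higher intensities in both OE arrays than in both WT arrays, AT4G12490, AT4G12500 and AT4G22470, and AT4G22490 lay the other way. Of all probe sets, 23.1% had both OE 0d arrays above both WT 0d arrays. The log2 fold changes were 2.12 for AT4G12490 (SE 0.47, 95% CI 1.03 to 3.21), 1.52 for AT4G12500 (95% CI 0.02 to 3.02) and 1.31 for AT4G22470 (SE 0.34). None of the 4 was called after adjustment over all probe sets in limma, where adjusted p was 0.259, 0.587 and 0.328 in that order and 0.819 for AT4G22460, and 0.0528% of all probe sets were called higher and 0.0264% lower. With the study's rule, a fold over 2 and an unadjusted p under 0.05, 3 of the 4 passed, against 0.435% of all probe sets in the higher direction. The p used here was limma's, as the paper names no test for its arrays. With the 4 arrays of this comparison alone, AT4G12490 (adjusted p = 0.0269) and AT4G12500 (adjusted p = 0.0495) were called, and so were 0.431% of all probe sets in the higher direction. The median log2 fold change of the 4 members was 1.42, beside -0.01 over all probe sets.

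Between the genotypes after drought, no tested member passed the test. In OE 5d vs WT 5d the log2 fold changes were 0.23 for AT4G22460, 0.08 for AT4G22470, 0.23 for AT4G12490 (95% CI -0.86 to 1.32) and 0.37 for AT4G12500 (95% CI -1.13 to 1.88). Without the first or the second OE 5d array AT4G12500 was at 1.54 or -0.80 and AT4G12490 at 0.80 or -0.34. None of the 4 was called in limma (adjusted p from 0.502 to 0.934), none had an unadjusted p under 0.05, and 0.0484% of all probe sets were called higher and 0% lower. AT4G22490, at 3.53, was the one member with a difference above 1 on the log2 scale here.

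**Figure D2:**
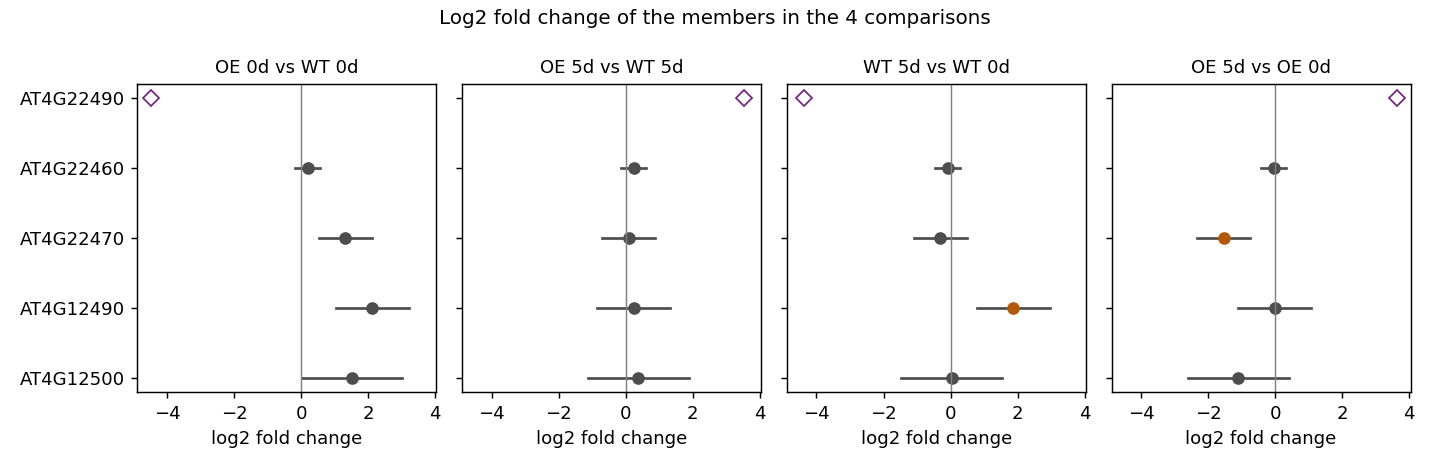
Log2 fold change of the 5 genes in the 4 comparisons, with 95% confidence intervals from limma as bars, orange for the 2 calls and open diamonds for AT4G22490, which has no test. In OE 0d vs WT 0d, AT4G12490, AT4G12500 and AT4G22470 lay at 2.12, 1.52 and 1.31 while AT4G22490 lay at -4.48.

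The second question was how drought changed these genes in each genotype. In WT, 1 of the 4 tested members was called higher, AT4G12490, and 0 lower, where 15.7% of all probe sets were called higher and 14.8% lower. In the OE lines, 0 were called higher and 1 lower, AT4G22470, where 7.06% of all probe sets were called higher and 6.53% lower. With 4 genes, a single call in a direction lies near these shares. In the test of the difference between the drought responses, 0 of the 4 were called in limma (adjusted p from 0.271 to 0.957). Of all probe sets, 0.0308% were called higher and 0% lower. An unadjusted p under 0.05 was reached by 2 of the 4, and the share of all probe sets reaching it was not counted. Without the second OE 5d array this difference was -2.46 for AT4G12490 and -2.31 for AT4G12500. Without the first array it was -1.32 for AT4G12490 and 0.02 for AT4G12500. The value of AT4G12500 therefore depended on the array kept. The array left in OE 5d shows no scatter of its own, so calls in these fits are no added evidence. Of all probe sets, 8.56% were called lower and 9.72% higher without the second array. Without the first array, 0.154% of all probe sets were called lower and 0.615% higher.

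OE 0d vs WT 0d and WT 5d vs WT 0d share the WT 0d arrays, so the members' values in them are given only side by side. They were -4.48 and -4.38 for AT4G22490, 2.12 and 1.87 for AT4G12490, 1.52 and 0.04 for AT4G12500, 1.31 and -0.31 for AT4G22470 and 0.19 and -0.09 for AT4G22460. Of the pair of OE 5d arrays, the first was the higher for AT4G22490 (278 against 123) and AT4G22460 (13.5 against 12.4), and the second for AT4G12490 (500.4 against 227), AT4G12500 (62.2 against 12.3) and AT4G22470 (9.23 against 7.27).

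Other genes of the family and its pathways were taken from lists of loci assigned from general knowledge of the families. Of 11 further hybrid proline-rich or cysteine-rich genes of both clusters, 2 had a named probe set, AT4G12530 and AT4G22610. Both were under 32 on all arrays and neither was called in any comparison. In the 4 comparisons their largest differences were 0.39 for AT4G22610 in OE 5d vs OE 0d and 0.18 for AT4G12530 in OE 5d vs WT 5d, both log2 fold changes.

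Of 12 hybrid proline-rich genes elsewhere in the genome, 5 had a named probe set, and 4 of these fell in WT during drought, with 0 higher, where 14.8% of all probe sets were called lower. In the OE lines 1 of the 5 fell, where 6.53% were called lower. The median log2 fold change of the 5 was -1.79 in WT, beside 0.01 over all probe sets, and -0.17 in the OE lines, beside -0.01. AT1G62500 gave 242 and 158 in WT 0d, 30.9 and 203 in OE 0d, 16.2 and 13.9 in WT 5d and 204 and 90.9 in OE 5d. Both WT 5d arrays lay below all others. It fell by 3.71 on the log2 scale in WT (adjusted p = 0.00810 in limma), and its value in the OE lines was 0.78 (adjusted p = 0.594), or 0.20 and 1.37 without the first or the second OE 5d array. Their difference, 4.49, did not pass (adjusted p = 0.171). The OE 0d arrays of AT1G62500, 30.9 and 203, were 6.60-fold apart and overlapped those of OE 5d. The direction of its response in the OE lines is therefore not settled.

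AT2G10940, a bright probe set, fell in both genotypes, from 4429 and 3739 in WT 0d to 735 and 351 in WT 5d (-3.003, adjusted p = 0.00130) and from 3477 and 3411 in OE 0d to 1178 and 618 in OE 5d (-2.01, adjusted p = 0.0134). AT1G62510 fell in WT, from 235 and 338 to 80.3 and 82.2 (-1.79, adjusted p = 0.00230), while its OE values, 449.8 and 326 before and 305 and 488 after drought, overlapped (0.01, adjusted p = 0.987, or 0.35 and -0.33 without the first or the second OE 5d array, neither called). AT2G45180, the fourth by adjusted p and named after its values were seen, also fell in WT (-1.01, adjusted p = 0.0146). The fifth gene, AT1G12100, did not pass the test (-0.65, adjusted p = 0.0723). The count in WT depended on the setting, and so did the calls over all probe sets. With values under 32 set to 32, 2 of the 5 were called lower, beside 1778 of 22746 probe sets. With the 4 arrays of the comparison alone 5 were, beside 4026, against 3376 in the main fit. Some fits without 1 WT array called fewer of the 5, and fewer of all probe sets. Leaving out 1 array gave -4.02 to -3.40 for AT1G62500 and -2.06 to -1.53 for AT1G62510. It gave -3.54 to -2.47 for AT2G10940 and -1.40 to -0.62 for AT2G45180. The call of AT2G10940 in the OE lines was lost with the 4 arrays of the comparison alone (adjusted p = 0.0573). It was also lost with values under 32 set to 32 (adjusted p = 0.107), although the gene had none and stayed at -2.01, and without either OE 0d array. The value was -2.48 or -1.55 without the first or the second OE 5d array. No gene of this list was called between the genotypes or in the difference between the drought responses with all 8 arrays, and the largest difference at 5 d was 3.19 for AT1G62500 (adjusted p = 0.181), followed by 2.25 for AT1G62510 (adjusted p = 0.0659). Without the second OE 5d array, 3 of the 5 were called higher in OE 5d vs WT 5d and 2 in the difference between the responses, with 10.2% of all probe sets called higher and 10.3% lower in the former. Without the first, 1 was called in each, with 0.545% of all probe sets called higher and 0.0484% lower in OE 5d vs WT 5d. The array left in OE 5d shows no scatter of its own, so the calls in these fits are no added evidence. Between the genotypes at 5 d, AT1G62510 was at 2.59 without the first and 1.91 without the second array. In the difference between the responses AT1G62510 was then at 2.14 and 1.47. With all 8 arrays that difference was 1.81 (adjusted p = 0.162 in limma). AT1G62500 was at 2.60 and 3.77 between the genotypes at 5 d without the first or the second array. In the difference between the responses AT1G62500 was then at 3.91 and 5.07.

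Lipid transfer proteins are small secreted relatives without the proline-rich stretch that bind lipids in their central cavity. Of 18 such genes 5 had a named probe set, with 1 higher and 2 lower calls in WT during drought, and 2 higher and 1 lower call in the OE lines. Over all probe sets, the higher and lower calls made up 15.7% and 14.8% for WT, and 7.06% and 6.53% for the OE plants. AT5G01870 was called in opposite directions, with 58.1 and 45.0 in WT 0d, 9.62 and 11.2 in OE 0d, 6.41 and 7.59 in WT 5d and 64.2 and 23.5 in OE 5d. Its WT 0d and OE 5d arrays were all above its OE 0d and WT 5d arrays, the same split as for AT4G22490. It fell by 2.87 on the log2 scale in WT (adjusted p = 0.00175 in limma) and rose in the OE lines by 1.90 (adjusted p = 0.0197). The OE response minus the WT response was 4.78, which did not pass (adjusted p = 0.0779). This difference was 4.05 or 5.50 without the first or the second OE 5d array, and the response in the OE lines was then 1.18 or 2.63. OE 5d vs WT 5d was 2.48 (adjusted p = 0.0977), and 1.75 or 3.20 without the first or the second array. Its call in the OE lines was lost with the 4 arrays of the comparison alone (adjusted p = 0.110) and without the first or the second OE 0d array (adjusted p = 0.126 and 0.110), and both calls were lost with values under 32 set to 32 (-0.68, adjusted p = 0.353, and 0.50, adjusted p = 0.654).

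AT5G48490 fell in both genotypes, from 1790 and 1719 to 287 and 186 in WT (-2.92, adjusted p = 0.000537) and from 1321 and 1396 to 570.1 and 509 in the OE lines (-1.33, adjusted p = 0.00688). AT5G55450 rose in both, from 507 and 335 to 1871 and 1809 in WT (2.16, adjusted p = 0.00126) and from 492 and 320.4 to 1015 and 1365 in the OE lines (1.57, adjusted p = 0.00979). With all 8 arrays neither was called between the genotypes. For AT5G48490, OE 5d vs WT 5d was 1.14 or 1.30 without the first or the second OE 5d array. The difference between the responses was then 1.51 or 1.67. The response in the OE lines without the first or the second OE 5d array was -1.42 and -1.25 for AT5G48490 and 1.78 and 1.35 for AT5G55450. In the OE lines, the call of AT5G48490 was lost without the first or the second OE 0d array (adjusted p = 0.0521 and 0.0716), and that of AT5G55450 without the second (adjusted p = 0.0869) and with the 4 arrays alone (adjusted p = 0.0621). With values under 32 set to 32 both were lost (adjusted p = 0.0517 and 0.0788), although neither gene had a value under 32. The other 2 lipid transfer genes were under 32 on all arrays and were not called.

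Of 15 genes of systemic acquired resistance, the leaf-to-leaf immune signalling in which AZI1 takes part, 2 had a named probe set. During drought both were called higher in WT, beside 15.7% of all probe sets, and 1 of them in OE plants, beside 7.06%. AT5G52810 rose in both genotypes, from 95.2 and 107 to 618 and 807 in WT (2.81, adjusted p = 0.000660) and from 154 and 137 to 281 and 501 in the OE lines (1.37, adjusted p = 0.0153). AT5G03350 rose in WT (1.84, adjusted p = 0.00718), and its value in the OE lines was 0.71 (adjusted p = 0.266). The call of AT5G52810 in the OE lines was lost with the 4 arrays of the comparison alone (adjusted p = 0.0866) and with values under 32 set to 32 (adjusted p = 0.101). It was also lost without either OE 0d array, and the value was 1.79 or 0.95 without the first or the second OE 5d array. The call of AT5G03350 in WT was lost without the second WT 0d array (1.34) or the second WT 5d array (1.82). It was also lost with values under 32 set to 32 (adjusted p = 0.0728). Neither gene had a value under 32. With all 8 arrays neither was called between the genotypes or in the difference between the drought responses. That difference was -1.02 or -1.86 for AT5G52810 and -0.68 or -1.57 for AT5G03350 without the first or the second OE 5d array. OE 5d vs WT 5d was then -0.50 or -1.33 for AT5G52810 and -0.07 or -0.95 for AT5G03350. The drought response of AT5G03350 in the OE lines was then 1.15 or 0.27.

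**Figure D3:**
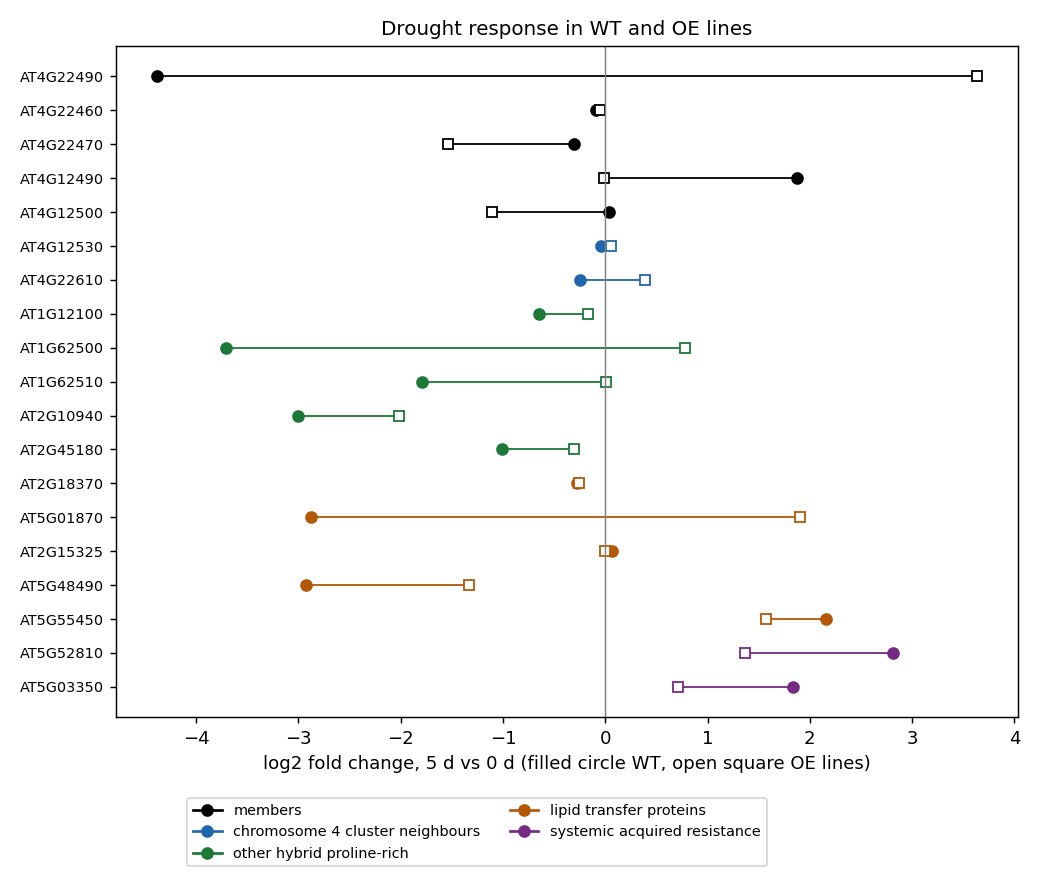
Log2 fold change from 0 d to 5 d in WT (filled circles) and in the OE lines (open squares) for the 5 genes and the listed relatives with a named probe set, joined by a line per gene and coloured by list. AT4G22490 (-4.38 and 3.63) and AT5G01870 (-2.87 and 1.90) lay on both sides of 0. AT1G62500 lay at -3.71 and 0.78, but its value in the OE lines was not called and its OE 0d and OE 5d arrays overlapped.

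The profiles of other genes were compared with that of AT4G22490 over the 8 arrays by the root-mean-square difference of mean-centred log2 intensities, among 13435 probe sets named for a single gene. The spread of AT4G22490 itself on this measure was 2.07. The nearest was AT5G01870 at 0.92, followed by AT5G19340 at 1.35, AT4G15910 (DI21, named as drought-induced) at 1.35, AT4G19430 at 1.36 and AT4G02290 (GH9B13, a glycosyl hydrolase) at 1.37. AT5G01870 stood clear of the other 4, which lay close together. DI21 gave 309 and 315 in WT 0d, 125 and 136 in OE 0d, 76.7 and 55.1 in WT 5d and 519 and 112 in OE 5d. In watered leaves the log2 difference of the OE lines from WT ran from -2.30 to -1.26 over these 5 genes, and after drought from 1.47 to 2.48. They were chosen for this likeness, so the values are a description. In OE 5d the first array was well above the second for DI21, AT5G19340 (52.1 against 15.6) and AT5G01870 (64.2 against 23.5). The values of these genes after drought therefore depend on the array kept. AT4G19430 (48.7 and 40.5) and GH9B13 (36.8 and 39.0) had closer arrays.

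No AZI1 profile was at hand for the same comparison, and AT4G12490 was used in its place, a choice made after its values were seen. Its own spread was 0.997. The nearest was AT5G05600 at 0.36, followed by AT3G55970 (JRG21, a jasmonate-regulated gene) at 0.47, AT3G51450 at 0.49, AT5G05340 (PRX52, a peroxidase) at 0.50 and AT2G39420 at 0.54. AT5G05600 gave 50.3 and 48.6 in WT 0d, 203 and 205 in OE 0d, 172 and 173 in WT 5d and 144 and 259 in OE 5d, with WT 0d below all other arrays as for AT4G12490. JRG21 gave 17.3 and 10.4 in WT 0d, 55.6 and 102 in OE 0d, 80.9 and 55.9 in WT 5d and 50.1 and 146 in OE 5d.

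**Figure D4:**
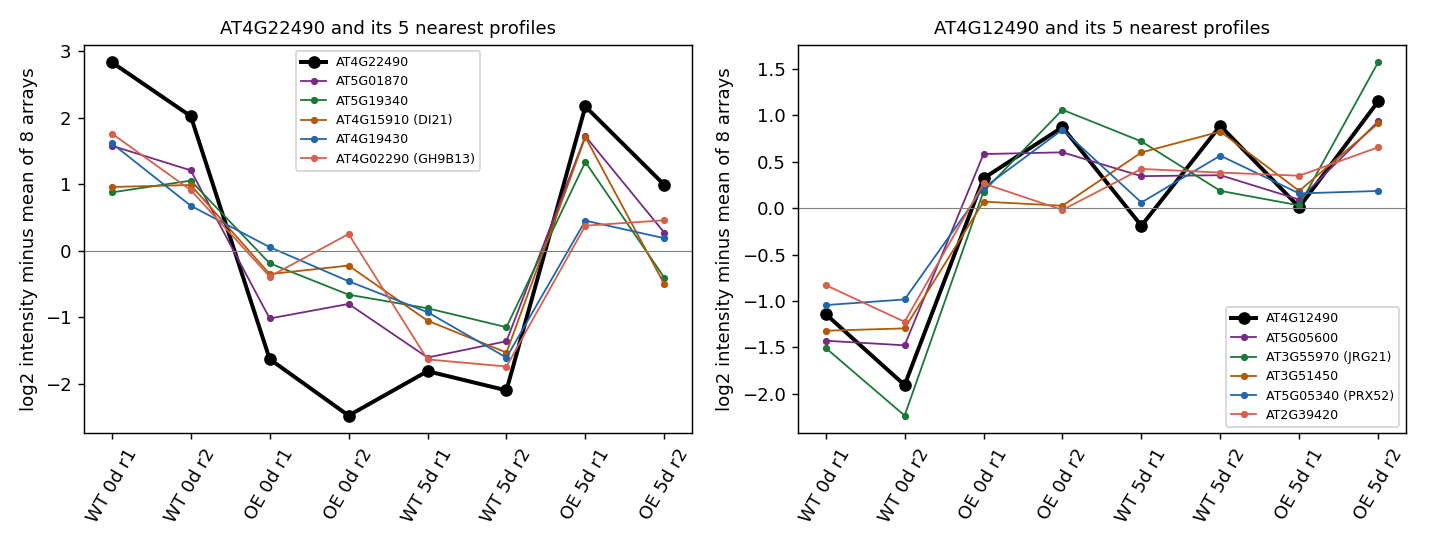
Log2 intensity minus the mean of 8 arrays, by array (r1 and r2 are replicates 1 and 2), for AT4G22490 and AT4G12490 in black and the 5 nearest profiles of each in colour, with lines that only join the points of a gene. AT5G01870 was nearest to AT4G22490, at 0.92, and AT5G05600 nearest to AT4G12490, at 0.36.

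In the TAIR10.1 annotation, AT4G12470 to AT4G12500 span 6 protein-coding genes in a row, with AT4G12485 and AT4G12495 between the members, and AT4G22460 to AT4G22490 span 7, with 4 others between. The 10 protein-coding genes on either side of the members were examined as well, a window chosen after the values were seen. Of 22 such genes at the AT4G12 cluster 5 had a named probe set, and of 24 at the AT4G22 cluster 10 did. In OE 0d vs WT 0d none of these 15 was called, and their log2 fold changes ran from -0.55 to 0.14 at the first cluster and from -0.49 to 0.30 at the second. With all 8 arrays none was called in OE 5d vs WT 5d or in the difference between the drought responses. For the flanking genes named below, OE 5d vs WT 5d was also fitted without the first or the second OE 5d array. It was then 0.29 or 0.97 for AT4G12420, 0.06 or 0.49 for AT4G22380, -0.29 or 0.90 for AT4G22560 and -0.52 or -1.26 for AT4G22530.

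During drought in WT, 1 of the 15 flanking genes was called higher and 3 lower, near the 15.7% and 14.8% of all probe sets. SKU5 (AT4G12420), which encodes a protein of directed root growth, fell by 2.48 on the log2 scale (adjusted p = 0.000642), AT4G22380 fell by 1.06 (adjusted p = 0.00407) and AT4G22560 fell by 1.18 (adjusted p = 0.0293). AT4G22530 rose by 2.101 (adjusted p = 0.00129). In the OE lines SKU5 fell by 1.30 (adjusted p = 0.00997) and no other flanking gene was called with all 8 arrays. SKU5 was at -1.64 or -0.96 there without the first or the second OE 5d array. AT4G22460, next to AT4G22470 in the family's own order, was at -0.09 and -0.05 in these comparisons, where AT4G22490 was at -4.38 and 3.63.

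**Figure D5:**
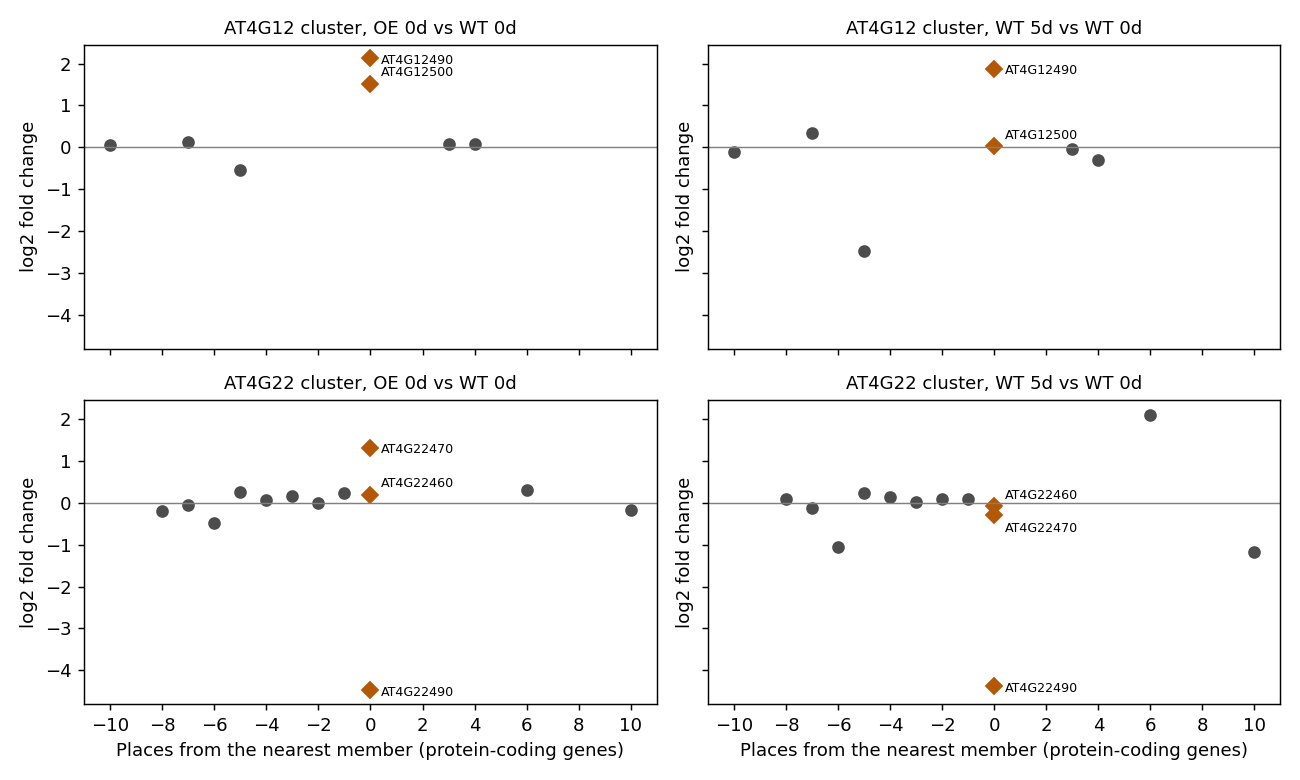
Log2 fold change of the genes around each cluster in OE 0d vs WT 0d and WT 5d vs WT 0d against their place in protein-coding gene order, counted from the nearest member, with the members as orange diamonds at 0 and other genes as grey circles. In OE 0d vs WT 0d the grey circles lay between -0.55 and 0.30, whereas AT4G22490 lay at -4.48 and AT4G12490 at 2.12.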

How the data were processed

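RNA of leaves of 8 samples was amplified, labelled with biotin, hybridized to ATH1 arrays and scanned by a commercial service. The authors deposited linear intensities, 1 per probe set and array. The software that summarized and normalized them is not given in the sources used here, so its effect on dim probe sets is unknown. The members and gene lists were chosen with earlier results of these data known. After 64 array controls were left out, log2 intensities (floor 1) of 22746 probe sets were fitted with limma 3.58.1 in R 4.3.3 (lmFit and eBayes), with a mean for each of 4 groups over all 8 arrays (4 residual degrees of freedom). P-values were adjusted by Benjamini-Hochberg over all probe sets, and a call is an adjusted p under 0.05. The number of arrays limits the precision. Tables and figures were made with Python 3.11.15. The fit was tested on simulated data.

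Probe sets were named through the platform annotation. Of the 22746, 13436 named 1 gene with a locus tag, 503 named several and 8730 were not listed. Gene order came from RefSeq for TAIR10.1.

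The named genes were the members, the 5 nearest profiles of AT4G22490 and of AZI1, and, in each list and comparison, up to 3 called genes with the smallest adjusted p or, with none called, up to 2 with the largest differences. AT4G12490 stood in for AZI1. Neither the members nor any other list reached 80% of its genes with a named probe set, so counts describe the named genes only. Alternatives covered the arrays fitted, a replicate block, quantile normalization, median centring, values or probe sets under 32, the variance model, the study's threshold (fold over 2 or under 0.5, unadjusted p under 0.05) and leaving out each array. Ratios of arithmetic means, and list counts under the same alternatives, were added after the data were seen, as were the flanking genes without each OE 5d array.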

Additional observations from a re-analysis of the deposited data

Results flagged for a closer look

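The drought responses of AT4G22490 ran in opposite directions in the 2 genotypes. Both WT 5d arrays lay below both WT 0d arrays, and both OE 5d arrays lay above both OE 0d arrays. The response in the OE lines minus that in WT was 8.01 on the log2 scale. The difference was not tested, because the gene was chosen for it.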

How the results depend on the processing

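The precision rests on 2 arrays a group, and many of the members' values are dim. With the 4 arrays of a comparison alone, 2 members were called in OE 0d vs WT 0d, and in the drought response of the OE lines 0 were. With the study's threshold, applied to limma's unadjusted p, 3 passed in OE 0d vs WT 0d, against 0.435% of all probe sets in the higher direction. In the difference between the drought responses 2 passed. The paper did not report a test of that difference. The share of all probe sets passing it was not counted, so nothing is read from the 2. With values under 32 set to 32, 0 members were called in the drought response of WT and 0 in that of the OE lines. AT4G12490, the call in WT, had no value under 32 and kept its fold change of 1.87. The values of AT4G22490 were then -3.38 between genotypes before drought and 2.53 after it. They were -3.38 for drought in WT, 2.53 in the OE lines and 5.91 for the difference between the responses. With dim probe sets left out, only AT4G12490 and AT4G12500 remained to be tested among the 4 and 0 were called in OE 5d vs OE 0d. Leaving out 1 array leaves 1 in its group and changed which members were called for drought. Its effect sizes are given below, without counts of calls.

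Signs turned for small values and, for AT4G12500, for larger ones too. With arithmetic means, AT4G12490 was at 0.0666 in OE 5d vs OE 0d, and with quantile normalization the difference between the responses of AT4G22460 was -0.0288. Leaving out 1 array gave, in OE 5d vs WT 5d, -0.14 to 0.30 for AT4G22470, -0.34 to 0.80 for AT4G12490 and -0.80 to 1.54 for AT4G12500. In WT 5d vs WT 0d it gave -0.24 to 0.0628 for AT4G22460 and -0.32 to 0.39 for AT4G12500. In OE 5d vs OE 0d it gave -0.17 to 0.0697 for AT4G22460, -0.59 to 0.55 for AT4G12490 and -2.28 to 0.0629 for AT4G12500. In the difference between the responses it gave -0.11 to 0.19 for AT4G22460 and -2.31 to 0.0247 for AT4G12500. AT4G22490 kept its direction under all alternatives run. The cause of these shifts was not tested.

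The replicate numbers were not shown to pair the samples: deviations of same-numbered arrays correlated between groups at 0.0136 to 0.223. All 6 correlations were above 0, a hint from the data only. With the replicate number as a block, 0, 0, 1, 1 and 0 members were called between genotypes at 0 d, at 5 d, for drought in WT, in the OE lines and in the difference between the responses, as without it, while the calls over all probe sets in OE 5d vs WT 5d were 22 higher and 1 lower, against 11 and 0.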
